A study of Mus musculus with 1778 samples.

Results

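Sox1, Sox2, Sox3 and Sox21, the SoxB factors of neural progenitors measured here, were taken by name from a table of reads per gene and cell, so they are 4 of its 24920 genes. The cells came from C57BL/6 mouse embryos with the alleles Wnt1::Cre and Rosa26TdTomato, in which Cre driven from Wnt1 switches on a lasting red fluorescent protein in dorsal neural tube cells and their crest descendants. The labels call all cells cranial neural crest, and every stage carries both alleles, so no stage is an unlabelled control. Single sorted cells of embryos with 4, 6, 8 and 10 somites went through Smart-Seq2, which covers full transcripts and uses no molecular identifiers. Of 1778 cells, 1728 passed the filters on depth and genes, with 12.7%, 48.3%, 13.1% and 25.8% of them at these stages. Sox10, a SoxE factor of migrating crest, had reads in 17.7%, 32.8%, 75.8% and 80.5% of the cells of each stage, and cells with and without Sox10 reads are compared. The labels name no embryo, so each stage is 1 sample, cells are not replicates, and no test was made.

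Sox proteins bind DNA through an HMG domain. Sox1, Sox2 and Sox3 form the SoxB1 subgroup, which acts mainly as activators, and Sox21 belongs to SoxB2, which acts mainly as repressors. In the chick neural tube, SoxB1 proteins hold cells in the progenitor state and Sox21 works against them. Neural crest cells arise at the border of the neural plate, and many Sox proteins act with a POU-domain partner at paired sites.

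Each member is a gene of 1 exon in the GENCODE vM21 models on mm10. Sox1 lies on chromosome 8 from 12395295 to 12400126 (plus strand), Sox2 on chromosome 3 from 34650405 to 34652461 (plus), Sox3 on the X chromosome from 60891366 to 60893430 (minus) and Sox21 on chromosome 14 from 118233232 to 118237030 (minus). Of the 3799 exon bases of Sox21, some are shared with an antisense long RNA, Gm4675, that has no row in the table, so Sox21 reads from those bases cannot be assigned to a strand here. Sox1 and Sox2 lie within the long RNAs Sox1ot and Sox2ot, on the same strand, and share 0 exon bases with them.

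The RefSeq promoters (GRCm38.p6, from 250 bases before the start of transcription to 50 after it) of the 3 members with an entry (not Sox3) are shown because these genes varied together from cell to cell. Capitals mark, on either strand, the SOX core ACAAAG or ACAATG, the POU octamer ATGCAAAT and the CCAAT box.
Sox1, chr8:12395269-12395568, plus strand: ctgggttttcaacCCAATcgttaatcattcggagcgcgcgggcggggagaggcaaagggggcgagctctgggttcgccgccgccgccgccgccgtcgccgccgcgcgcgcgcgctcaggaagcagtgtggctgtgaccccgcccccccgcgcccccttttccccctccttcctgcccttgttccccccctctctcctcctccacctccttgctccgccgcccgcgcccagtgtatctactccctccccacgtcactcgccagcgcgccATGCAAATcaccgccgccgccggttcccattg
Sox2, chr3:34649745-34650044, plus strand: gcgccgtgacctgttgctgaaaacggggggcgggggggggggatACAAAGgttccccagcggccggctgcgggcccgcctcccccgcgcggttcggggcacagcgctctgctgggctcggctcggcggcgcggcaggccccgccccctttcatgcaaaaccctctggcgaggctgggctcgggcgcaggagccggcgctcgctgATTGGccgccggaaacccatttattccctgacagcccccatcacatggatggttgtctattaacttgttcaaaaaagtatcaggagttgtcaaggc
Sox21, chr14:118236981-118237280, minus strand: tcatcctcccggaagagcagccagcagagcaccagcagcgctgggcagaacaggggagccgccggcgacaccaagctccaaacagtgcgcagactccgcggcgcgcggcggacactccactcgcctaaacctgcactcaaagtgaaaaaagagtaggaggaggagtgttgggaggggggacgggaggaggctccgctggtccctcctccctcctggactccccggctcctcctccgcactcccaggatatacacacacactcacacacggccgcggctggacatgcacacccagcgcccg
The Sox2 window held ACAAAG, a motif of 18.7% of the 32851 promoters of the table, and a CCAAT box, which 37.4% held. The Sox1 window held a CCAAT box and, 18 bases after the start, an octamer, which 1.74% held. Neither SOX core, octamer nor CCAAT was found in the Sox21 window, and ACAATG, held by 12.6% of promoters, was found in none of the 3. The windows shared a high GC content, with 70.7% in Sox1, 66.3% in Sox2 and 65.7% in Sox21 against a median of 52.7% over all promoters. They held 37, 27 and 22 CpG pairs against a median of 7. The RefSeq start of Sox2 lies upstream of its GENCODE start, and that of Sox1 lies inside its GENCODE exon, so that most of the Sox1 window, its octamer included, is exon in that annotation. A match is a run of letters and not a measured binding site.

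Sox2 and Sox21 carried most of the SoxB reads at every stage. Levels are the reads of a gene per 1000000 gene reads (RPM), summed over the cells of a group, with exact Poisson intervals that cover counting error only. Per kilobase of exon, at 4 somites Sox2 stood at 10.8 RPM, Sox21 at 9.42, Sox3 at 1.80 and Sox1 at 1.44, and at 10 somites Sox2 stood at 5.04, Sox21 at 2.12, Sox3 at 0.421 and Sox1 at 0.403. So Sox3 and Sox1 were neighbours at both ends of the series, and Sox2 and Sox21 were neighbours at 4 somites.

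All 4 SoxB genes were lower at 10 somites than at 4. For Sox3 and Sox21, every plate number of 10 somites lay below both of 4 somites. No plate number held cells of both stages. Sox1 stood at 6.94 RPM (6.61 to 7.28) at 4 somites, 4.51 at 6, 2.04 at 8 and 1.95 (1.80 to 2.10) at 10. Sox2 stood at 22.2 (21.7 to 22.9), 12.1, 13.1 and 10.4 RPM (10.0 to 10.7) at 4, 6, 8 and 10 somites. Sox3 stood at 3.71 (3.47 to 3.96), 3.47, 1.52 and 0.870 RPM (0.775 to 0.974) at these stages. For Sox21 the levels were 35.8 (35 to 36.5), 21.1, 16 and 8.05 RPM (7.75 to 8.35). By RPM over all cells, the largest step was 6 against 4 somites for Sox2 (log2 ratio −0.88), 8 against 6 for Sox1 (−1.15) and Sox3 (−1.19), and 10 against 8 for Sox21 (−0.995). Within shared plate numbers the largest was 10 against 8 for Sox3 (−0.97) and 8 against 6 for Sox21 (−1.10), with −0.27 for Sox21 in 10 against 8, while those of Sox1 and Sox2 were the same steps. Of the members with at least 5 RPM in either stage of a step, none was at least 2-fold lower or higher. Over all such genes, 0.616% were 2-fold lower and 0.842% higher in 6 against 4 somites, 0.88% and 8.75% in 8 against 6, and 0.94% and 0.181% in 10 against 8. The median gene had log2 ratios of −0.13, 0.46 and −0.17 in these steps. Sox21 stood at −0.39 in 8 against 6, so which of its steps was largest depends on the scaling.

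Set against 4 somites, 10 somites gave a log2 ratio of −1.83 for Sox1, −1.10 for Sox2, −2.09 for Sox3 and −2.15 for Sox21. Each exceeded the SD of log2 RPM over the 5 plate numbers of 6 somites, which was 0.382, 0.339, 0.678 and 0.460 in the same order. Among genes with at least 5 RPM in either stage, 3.96% were lower by 2-fold or more at 10 somites, and the 3 members with that level, Sox1, Sox2 and Sox21, all were. The median gene had a log2 ratio of 0.17.

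The titles of the cells carry a 7-digit number, read here as the plate, and stages lie on different numbers. Sox21 had 12.7, 7.10 and 8.71 RPM on the 3 plate numbers of 10 somites, against 23.3 and 45.6 RPM on the 2 of 4 somites, and the stages did not overlap. Sox3 had 0.754, 0.883 and 1.13 RPM at 10 somites against 3.08 and 4.20 RPM at 4, also without overlap. Sox2, with 9.37, 9.85 and 27.8 RPM at 10 somites against 14.4 and 28.4 at 4, did overlap. So did Sox1, with 0.987, 1.96 and 6.36 RPM at 10 somites against 8.04 and 6.07 at 4. The high value at 10 somites is that of 1 plate number with 12 cells for both genes.

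Ratios taken within shared plate numbers kept the sign for each member, but not the size. Chained over 6 somites, 10 against 4 came to −3.13 for Sox1, −1.68 for Sox2, −1.16 for Sox3 and −2.28 for Sox21. Chained over 8 somites, by way of 15 cells of that stage, it came to −1.82, −0.42, −1.72 and −0.25. Sox2 and Sox21 had nearly the same level at 8 and 4 somites on that one plate number, with 14.9 against 14.4 RPM for Sox2 and 23.4 against 23.3 RPM for Sox21. Of the 15 cells, 14 had Sox10 reads, against 25 of the 92 cells of 4 somites there. Those 14 held 14.5 RPM of Sox2 and 23.6 of Sox21. Cells with Sox10 reads on the other plate number of 8 somites held 8.63 and 6.22 RPM. The 15 cells were thus unlike most cells of their stage.

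**Figure D1:**
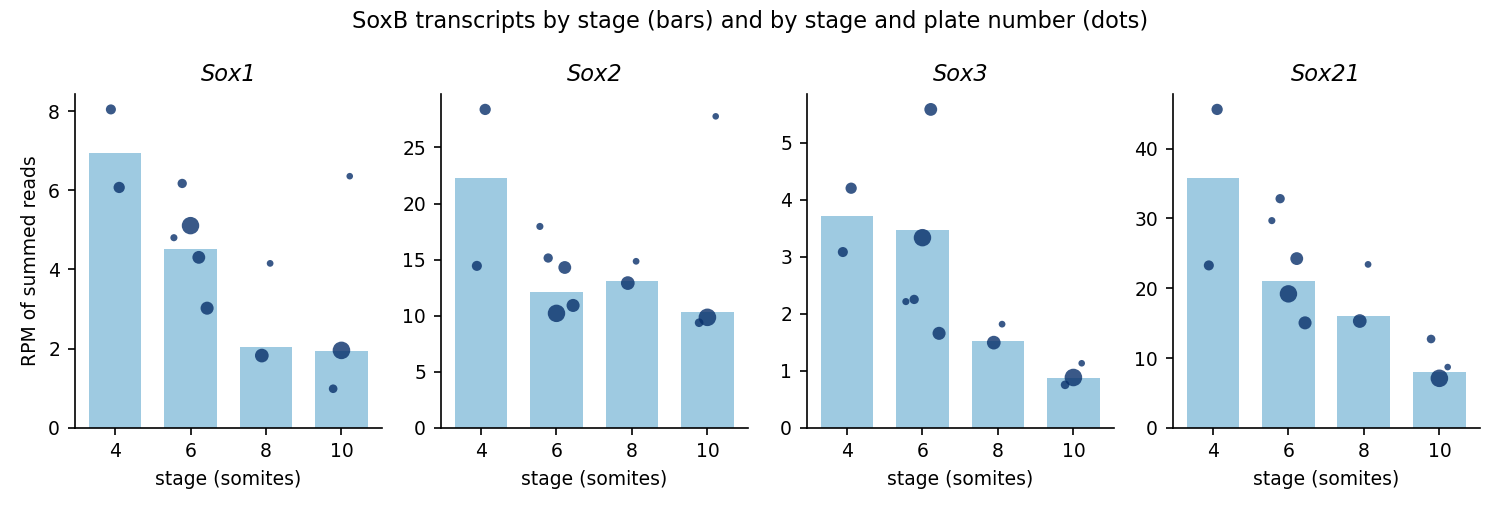
RPM of each SoxB gene (vertical axis, one scale per gene) at 4, 6, 8 and 10 somites. Bars sum all kept cells of a stage and dots sum the cells of 1 plate number with at least 10 cells, with larger dots for more cells. Sox21 dots at 10 somites (7.10 to 12.7) lie below both dots at 4 somites (23.3 and 45.6), while 1 Sox2 dot at 10 somites reaches 27.8.

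Cells with SoxB reads were scarcer at 10 somites as well. After each cell was thinned to 50000 reads, Sox21 was found in 45.5%, 34.3%, 26% and 15.9% of cells at 4, 6, 8 and 10 somites, and in 63.6%, 52.2%, 44.9% and 30.7% without thinning. Sox2 was found in 50.5%, 32.8%, 33.5% and 24.7% of thinned cells (79.1%, 63.4%, 64.3% and 60.5% without thinning). Shares of Sox1 were 20%, 12.1%, 6.61% and 6.28%, and those of Sox3 15%, 14.6%, 8.81% and 5.16%. Median depth was 1117610 reads per cell at 4 somites and 768600 at 10, which is why shares are read after thinning.

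The spread between cells was wide. Over all kept cells Sox21 ran from 0 to 567.01 RPM with a median of 0, and its median over cells with a read was 24.2 RPM. Sox2 ran from 0 to 150.9 RPM with a median of 6.11, and its median over cells with a read was 13.6. Sox2 was thus found in more cells (64.8% against 47.2% for Sox21 without thinning). Sox3, with a highest cell of 41.6 RPM, had a read in 45.3% of cells, and Sox1, with a highest cell of 113.9 RPM, in 24.6%.

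As summed RPM, cells with Sox10 reads held less of every SoxB transcript than cells without, at each of the 4 stages. Sox21 stood at 18.5 RPM in cells with Sox10 reads against 39.8 in cells without at 4 somites, 9.46 against 26.4 at 6, 8.17 against 40.7 at 8 and 4.06 against 26.3 at 10. The log2 ratios were −1.10, −1.48, −2.32 and −2.70. Sox1 stood at 2.33 RPM in cells with Sox10 reads against 8.02 in cells without at 4 somites, 1.95 against 5.69 at 6, 0.827 against 5.83 at 8 and 1.03 against 6.17 at 10, with log2 ratios of −1.77, −1.54, −2.81 and −2.59.

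Sox2 showed the smallest mean ratio of the 4. It stood at 12.5 RPM in cells with Sox10 reads against 24.5 in cells without at 4 somites, 6.13 against 14.9 at 6, 9.29 against 25 at 8 and 7.59 against 23.1 at 10, with log2 ratios of −0.97, −1.28, −1.43 and −1.61. Sox3 stood at 2.25 RPM in cells with Sox10 reads against 4.05 in cells without, 1.27 against 4.48, 0.896 against 3.49 and 0.467 against 2.72 RPM at these stages, with ratios of −0.84, −1.81, −1.96 and −2.54. Without thinning, Sox2 was found in 65.1% of cells with Sox10 reads against 61.8% of cells without at 8 somites. At 4, 6 and 10 somites the shares were 71.8% against 80.7%, 48.9% against 70.4% and 59.9% against 63.2%. The median over cells with a Sox2 read was 11.1 against 37.9 RPM at 8 somites and 8.01 against 28 at 10. At the thinned depth shares were lower with Sox10 reads at each stage, with 28.5% against 49.1% at 8 somites. The mean log2 ratio over stages was −2.18 for Sox1, −1.32 for Sox2, −1.79 for Sox3 and −1.90 for Sox21. Of the 3 members with at least 5 RPM in either class, 2 were at least 2-fold lower with Sox10 reads at 4 somites, where 4.32% of genes were and 1.18% were 2-fold higher. All 3 were at 6, 8 and 10 somites, where 3.71%, 9.87% and 8.72% of genes were. The median gene had log2 ratios of −0.14, 0.00, −0.16 and 0.04 at the 4 stages.

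Within plates the direction was the same. Of 8 pools of 1 stage and 1 plate number with at least 10 cells in both classes, each member was lower with Sox10 reads in 8. Pool ratios ran from −5.40 to −0.38 for Sox1, from −2.17 to −0.54 for Sox2, from −2.35 to −0.25 for Sox3 and from −3.13 to −0.20 for Sox21, with SDs of 1.61, 0.588, 0.642 and 0.955. On 1 plate number at 4 somites, where 14 cells had Sox10 reads, Sox21 stood at 40.2 RPM in these against 46.4 RPM in cells without, the smallest difference of any pool as a log2 ratio. By share the 2 classes were further apart, with a Sox21 read in 35.7% of the 14 cells against 70.2% of cells without. The highest of the 14 cells held 277.6 RPM, and their median was 0. Without that plate number the Sox21 ratio at 4 somites was −2.24. On the largest plate number of 6 somites, Sox21 stood at 2.84 RPM in cells with Sox10 reads against 25 RPM in cells without, the largest difference as a log2 ratio.

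**Figure D2:**
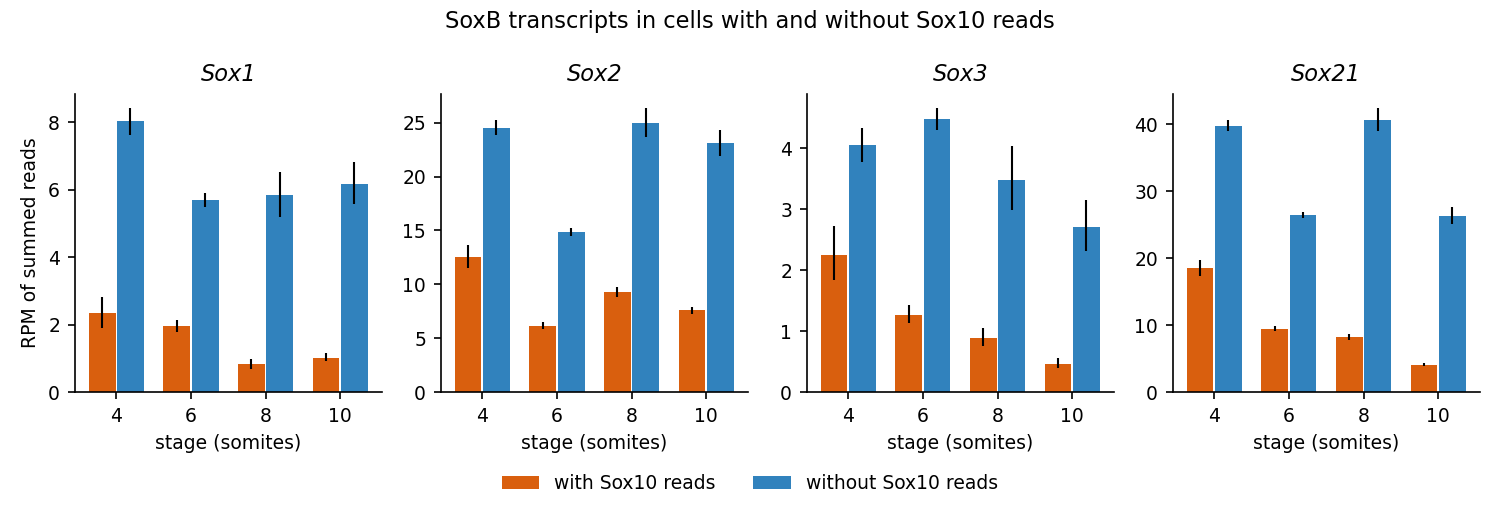
RPM of each SoxB gene (vertical axis, one scale per gene) in cells with Sox10 reads (orange, left) and without (blue, right) at each stage. Error bars are exact Poisson intervals at 95% and cover counting error only. The bar with Sox10 reads is the lower one in all 16 pairs, and the bars without Sox10 reads stay at 23.1 to 25 RPM for Sox2 at 4, 8 and 10 somites, with 14.9 at 6.

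Marker levels moved with this split. The summed level of 6 crest markers (Sox10 among them, which defines the split) was 117.8 to 531.2 RPM over the stages in cells with Sox10 reads against 7.01 to 45.9 RPM in cells without. For 6 neuroepithelium markers the sums were 28.4 to 39.8 against 60.04 to 117.2 RPM, though Nes, 1 of the 6, stood at 11.3 against 7.88 RPM at 6 somites and 17.2 against 14.7 at 8. The sums were 15.6 to 59.4 against 63.1 to 312.7 RPM for 6 endothelium markers. By share of cells with a read these markers were mixed. At 8 somites Kdr was found in 29.7% of cells with Sox10 reads against 16.4% without, and Cdh5 in 3.49% against 9.09%. The sum of erythroid markers went the other way at 8 somites, with 108.6 against 0.877 RPM. At that stage 10 cells had at least 3 erythroid markers at 10 RPM, and all 10 had Sox10 reads. Their median sums were 1524.7 RPM of erythroid and 401.8 RPM of crest markers. For 6 surface ectoderm markers the sums were 228.6 against 188.3 RPM at 4 somites and 63.3 against 315.5 RPM at 10. Zic1 of the neuroepithelium list and Trp63 of the surface ectoderm list were at 0 at 4 somites. At least 3 markers of a type other than crest, neuroepithelium or neuron reached 10 RPM in 22.4% of cells with Sox10 reads and in 39.3% of cells without. Leaving those cells out kept each member lower with Sox10 reads at each stage, and 1 ratio moved by more than the SD of its pool ratios, that of Sox21 at 10 somites, to −3.67. Median depth differed little, with 1171140 against 1094910 reads per cell at 4 somites and 800276 against 732589 at 10.

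The fall by stage was smaller within the cells without Sox10 reads, a comparison chosen after the values were seen. The share of cells with Sox10 reads was 17.7% at 4 somites and 80.5% at 10. Within cells with Sox10 reads, 10 against 4 somites came to a log2 ratio of −1.19 for Sox1, −0.73 for Sox2, −2.27 for Sox3 and −2.19 for Sox21. Within cells without Sox10 reads it was −0.38, −0.09, −0.57 and −0.60. Cells without Sox10 reads thus held 23.1 RPM of Sox2 at 10 somites against 24.5 at 4. The 39 cells with Sox10 reads at 4 somites are few, and 38.5% of them had 1 to 9 Sox10 reads, against 3.34% at 10 somites. Whether the 2 classes differed in the size of the fall was not tested.

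Summed over stages, SoxB levels were lowest in cells with the most Sox10. In cells with above 0 but under 10 RPM of Sox10 (65 cells), Sox2 stood at 20.6 RPM and Sox21 at 32.6, against 18.4 and 30.5 RPM in the 884 cells without a Sox10 read. At 10 to under 100 RPM of Sox10 (13.4% of cells), Sox2 stood at 9.26 and Sox21 at 11 RPM. At 100 RPM or more (31.7% of cells) they stood at 5.50 and 2.84 RPM. Sox1 ran through 6.29, 5.36, 1.89 and 0.601 RPM over the 4 grades and Sox3 through 4.18, 3.58, 1.28 and 0.431 RPM.

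At 6 and 10 somites taken alone, the 2 upper grades were again the lower ones for Sox2 and Sox21. At 10 somites Sox21 stood at 26.3, 37.1, 7.28 and 1.81 RPM and Sox2 at 23.1, 29.4, 11.4 and 5.59 RPM in 87, 11, 78 and 270 cells. At 4 somites the 19 cells of 10 to under 100 RPM of Sox10 held 0.958 RPM of Sox21, against 45.3 in the 16 cells of the grade under it. At 8 somites the grade above 0 but under 10 RPM, with 11 cells, was already low for Sox1 and Sox21, with 0.858 RPM of Sox1 against 5.83 in cells without Sox10 reads, and 22.5 RPM of Sox21 against 40.7. The next grade, with 35 cells, stood at 2.09 RPM of Sox1 and 22.4 of Sox21.

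**Figure D3:**
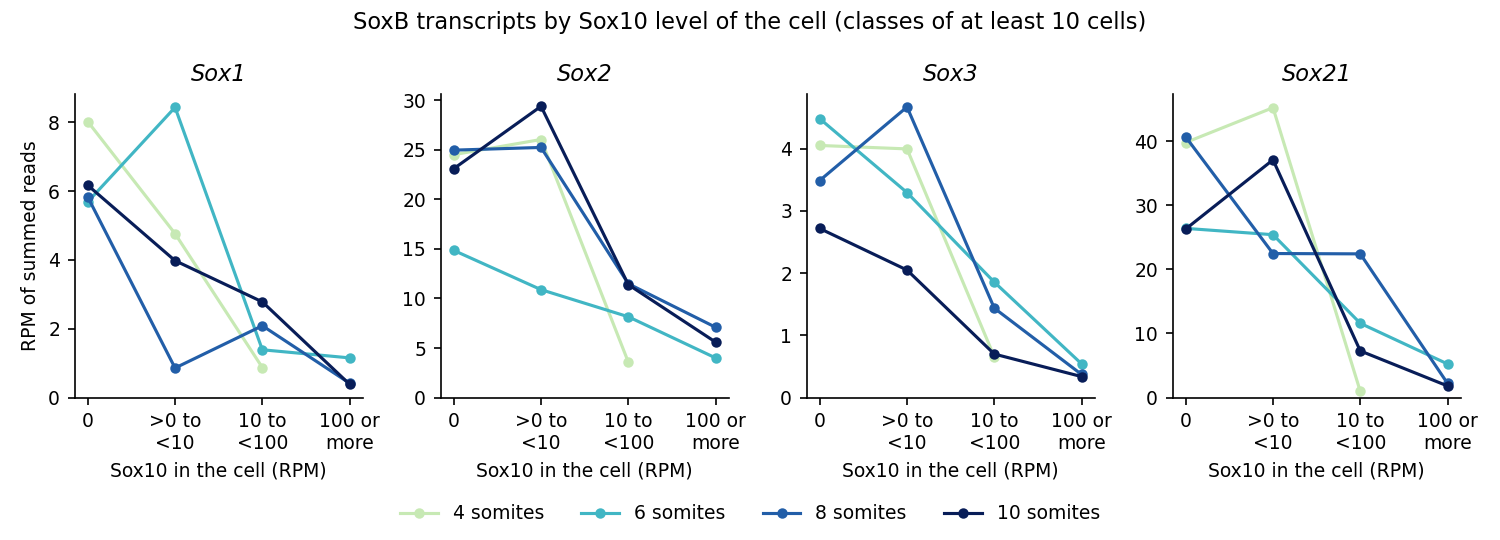
RPM of each SoxB gene (vertical axis, one scale per gene) against the Sox10 level of the cell in 4 grades (horizontal axis), with a line per stage and classes of at least 10 cells. For every gene each line ends below its start, and Sox21 at 10 somites ends at 1.81 RPM from a start of 26.3.

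Sox2 was the member most often found in cells with high Sox10. At 100 RPM of Sox10 or more, Sox2 was found in 20.1% of thinned cells (16.8 to 23.7), Sox21 in 10.0% (7.65 to 12.9), Sox3 in 2.37% (1.27 to 4.02) and Sox1 in 2.01% (1.01 to 3.56). Without thinning the shares were 56%, 23.2%, 16.6% and 11.3%. Among 77 cells with markers of head mesoderm, a tissue outside the neural lineage, 5.19% held Sox2, 6.49% Sox21, 0% Sox3 and 3.90% Sox1 at the thinned depth. Median depth was 827028 reads in the high Sox10 cells and 805196 in those of head mesoderm. Thinned to 200000 reads, high Sox10 cells held Sox2 in 41.5%, Sox21 in 16.3%, Sox3 in 5.50% and Sox1 in 5.69%, and head mesoderm cells in 18.2%, 15.6%, 0% and 5.19%. The order of the 2 kinds of cell turned with depth for Sox1, and for Sox21 the shares at 200000 reads were close. As summed levels, Sox21 stood at 2.84 RPM in high Sox10 cells against 2.80 in head mesoderm cells, and Sox1 at 0.601 against 0.227. The shares of Sox1 and Sox21 in high Sox10 cells are therefore not read as above background. The head mesoderm cells are no clean blank, since 26% of them had Sox10 reads.

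Per kilobase, Sox2 exceeded Sox21 in 10 of 12 pools of cells with Sox10 reads, with ratios of 0.913 to 5.89 and a median of 1.97. In pools of cells without Sox10 reads it did so in 6 of 8, with ratios of 0.778 to 2.03 and a median of 1.10. Sox21 exceeded Sox3 per kilobase in 12 of 12 and 8 of 8 pools. Sox3 exceeded Sox1 in 7 of 12 and 6 of 8 pools, so the order of those neighbours did not hold beyond the spread of the pools.

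Most cells held few SoxB genes at the thinned depth. None of the 4 was found in 27.3%, 43.6%, 57.3% and 66.6% of cells at 4, 6, 8 and 10 somites. Over all stages none was found in 66.5% (63.2 to 69.7) of cells with Sox10 reads against 32.8% (29.7 to 36) of cells without. At least 1 cell with all 4 was found at each stage, and there were 19 such cells in all, 2 with Sox10 reads and 17 without. These shares depend on depth. Thinned to 200000 reads, none of the 4 was found in 15.9%, 32.2%, 37.9% and 46.4% of cells at 4, 6, 8 and 10 somites. Without thinning it was 9.09%, 24.6%, 30.4% and 35.2%.

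**Figure D4:**
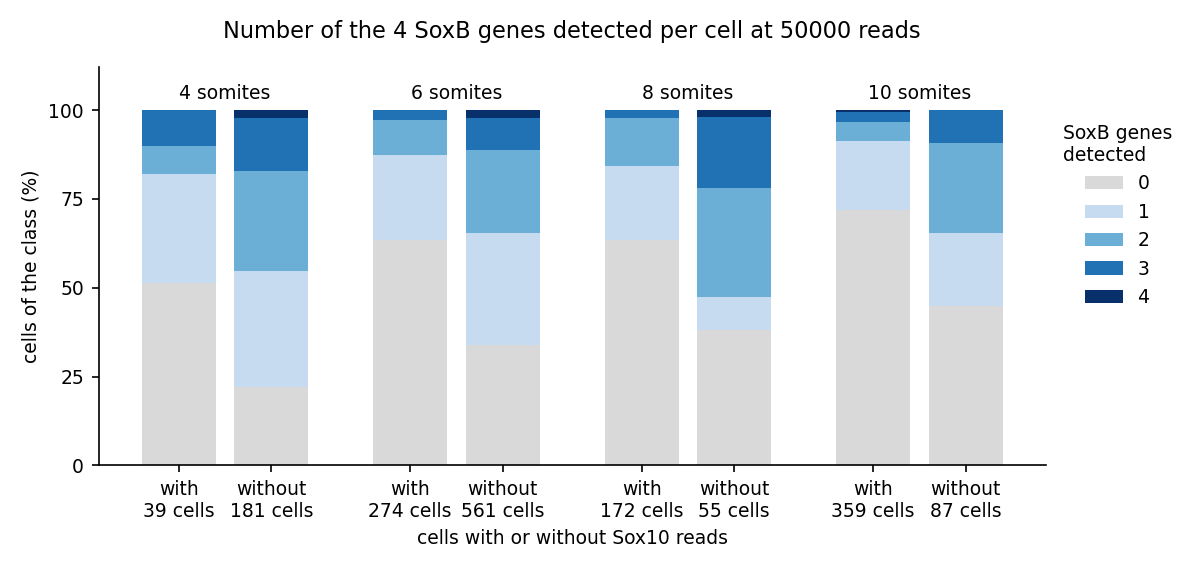
Share of cells (vertical axis, percent) in which 0 to 4 of the SoxB genes had a read after thinning to 50000 reads, for cells with Sox10 reads (left bar of each pair) and without (right bar) at each stage. The grey part, cells with none, is the larger one with Sox10 reads in each pair and makes up 66.5% against 32.8% over all stages.

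Sox2 and Sox21 were found together in 50.1% of the cells with Sox2, which were 33% of all, and in 55.4% of the cells with Sox21, which were 29.9% of all. Sox1 was found in 10.9% of cells, and 58% of these also held Sox2. Sox3 was found in 11.5% of cells, and 59.6% of these also held Sox21. In cells with Sox10 reads, 36.8% of the Sox2 cells also held Sox21, against 56.9% in cells without. Sox21 was found in 16.7% of all cells with Sox10 reads against 42.4% of all cells without.

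The members also varied together from cell to cell. Across the 1728 kept cells, after the mean of each stage and plate pool was taken away from log2(RPM + 1), Pearson r was 0.55 for Sox2 and Sox21, 0.49 for Sox3 and Sox21, 0.43 for Sox2 and Sox3, 0.38 for Sox1 and Sox21, 0.36 for Sox1 and Sox2 and 0.35 for Sox1 and Sox3. With Sox10 it was −0.24 for Sox1, −0.30 for Sox2, −0.35 for Sox3 and −0.40 for Sox21. Each pair of values shares a cell, its library and its depth, so these figures are a description.

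Foxb1, a forkhead factor of the neural tube, and Nuak2, a kinase, were among the 5 genes most like each of the 4 members by Pearson r, out of 10713 ranked genes with the SoxB genes themselves left out. By Spearman's rho Nuak2 ranked 32nd for Sox1 and Foxb1 6th for Sox2. For Sox21 the 5 were Foxb1 (r 0.64), Hes3 (0.55), a repressor of the Hes family in neural progenitors, Nuak2 (0.54), Ildr2 (0.50) and Rfx4 (0.49), a factor of brain development. For Sox2 they were Syt11 (0.48), Nuak2 (0.47), Foxb1 (0.47), Tubb4a (0.46), a tubulin, and Lrp2 (0.46), an endocytic receptor of the neuroepithelium. For Sox3 they were Nuak2 (0.46), Hes3 (0.43), Lrp2 (0.42), Foxb1 (0.41) and Sp8 (0.40), a zinc finger factor of the forebrain. For Sox1 they were Fgf15 (0.39), a fibroblast growth factor, Hes3 (0.38), Foxb1 (0.36), Ildr2 (0.35) and Nuak2 (0.35).

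At the other end, Ets1, a factor of cranial crest, had the lowest r with each member, −0.33 for Sox1, −0.46 for Sox2, −0.46 for Sox3 and −0.51 for Sox21. Cdc42ep1, an effector of the small GTPase Cdc42, was among the 3 lowest for all 4 by Pearson r, with −0.27, −0.42, −0.39 and −0.46. By Spearman's rho it ranked 63rd from the bottom for Sox1, and Ets1 ranked 14th. Tes, a focal adhesion protein, was among the 3 lowest for Sox21 (−0.45) and Sox1 (−0.29). Emilin1, an extracellular matrix glycoprotein, was so for Sox2 (−0.39) and Sox3 (−0.37).

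Other genes of neural progenitors were low in cells with Sox10 reads too. At 10 somites, 13 of 16 measured genes of that list were at least 2-fold lower and none higher, with a median log2 ratio of −2.13, beside 8.72% lower and 2.49% higher over all genes. Dbx1, a homeobox factor of neural tube progenitors, stood at 0.136 RPM in cells with Sox10 reads against 32.6 RPM in cells without. Six3, a factor of the forebrain, stood at 0.788 against 8.47 RPM. The highest ratios of the list were those of Ncam1, an adhesion molecule, with 10.1 against 8.12 RPM, and Msi2, an RNA-binding protein, with 5.97 against 7.19. At 4, 6 and 8 somites, 5 of 13, 8 of 14 and 8 of 17 genes of the list were lower by that much and 0 were higher, beside 4.32%, 3.71% and 9.87% lower and 1.18%, 1.91% and 2.09% higher over all genes.

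Crest specifiers went the other way, with 9 of 12 measured genes at least 2-fold higher with Sox10 reads at 10 somites and 1 lower, and a median log2 ratio of 2.74, beside 2.49% higher and 8.72% lower over all genes. Ngfr, a neurotrophin receptor, stood at 80.6 RPM with Sox10 reads against 1.39 without, and Erbb3, a neuregulin receptor of crest and glia, at 22.8 against 1.47. Msx1, a homeobox factor of the plate border and dorsal neural tube, was the one lower, with 3.67 against 13.4 RPM, though at 4 somites it stood at 15.9 against 3.82. Pax3, a paired-box factor of the same region, stood at 13.9 against 12.6 RPM at 10 somites.

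Of the POU genes that can partner Sox proteins, 1 of 3 measured at 10 somites was at least 2-fold lower with Sox10 reads, beside 8.72% of all genes. That was Pou3f2, with 1.15 against 7.89 RPM, while Pou3f1 stood at 6.51 against 12.1 and Pou2f1 at 16.6 against 22.8. Of the proneural and neuron genes, 2 of 4 were lower by that much, beside the same 8.72%, namely Dll1, a Notch ligand, with 4.24 against 22.5 RPM, and Stmn2, a neuronal microtubule regulator, with 3.24 against 12.8. Hes6 stood at 7.65 against 13.5 RPM and Tubb3, a neuronal tubulin, at 28 against 55.7.

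Other Sox genes were mixed, with 4 of 10 at least 2-fold higher with Sox10 reads at 10 somites and 3 lower, beside 2.49% and 8.72% of all genes. Sox10, whose reads define the split, is 1 of the 4. Sox5, a SoxD gene of the crest, stood at 27.7 RPM with Sox10 reads against 3.52 without. Sox17 and Sox7, SoxF genes of endothelium and endoderm, stood at 2.26 against 21.3 and 1.21 against 8.09 RPM. Between stages, 5 of 14 neural progenitor genes had a 2-fold lower level in 10 against 4 somites and 1 a higher one, beside 3.96% lower and 6.7% higher over all genes.

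The label of the cells was read against the markers of 10 cell types, counting cells with at least 3 of 6 markers at 10 RPM. Crest markers reached that in 9.55%, 27.4%, 64.3% and 76.2% of cells at 4, 6, 8 and 10 somites, so most cells of the early stages did not show the labelled type by this count. SoxB levels differed widely between such cells. Neuroepithelium-marker cells (11.1% of all) held 9.91 RPM of Sox1, 25.8 of Sox2, 5.12 of Sox3 and 39 of Sox21. Crest-marker cells (42.6%) held 0.879, 6.41, 0.635 and 4.60 RPM of these genes. The 41 cells that met both counts held 4.63, 22.5, 1.91 and 23.7 RPM, between those of the 2 groups.

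Cells with markers of floor plate and notochord (38 cells), the ventral midline of the neural tube and the rod under it, had the highest Sox2 and Sox21 levels, with 47 RPM of Sox2 (44.7 to 49.5) and 85.1 of Sox21 (82 to 88.4). All 38 held reads of both genes. Sox1 was at 1.93 RPM there, against 9.91 in neuroepithelium-marker cells. Head mesoderm cells (77) stood at the other end of the 6 types plotted, with 2.06 RPM of Sox2 and 2.80 of Sox21. Of the 38 cells with floor plate and notochord markers, 24 had exactly 3 markers, the least that counts, and 64 further cells had exactly 2. Foxa2 is on that list and on the foregut endoderm list. The median sum of foregut markers was 111.5 RPM in the 38 cells, against 96.3 in the 18 foregut-marker cells. Those 18 held 18.6 RPM of Sox2 and 37.3 of Sox21. Midline and foregut cannot be told apart by these counts. No cell type was assigned from these counts.

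**Figure D5:**
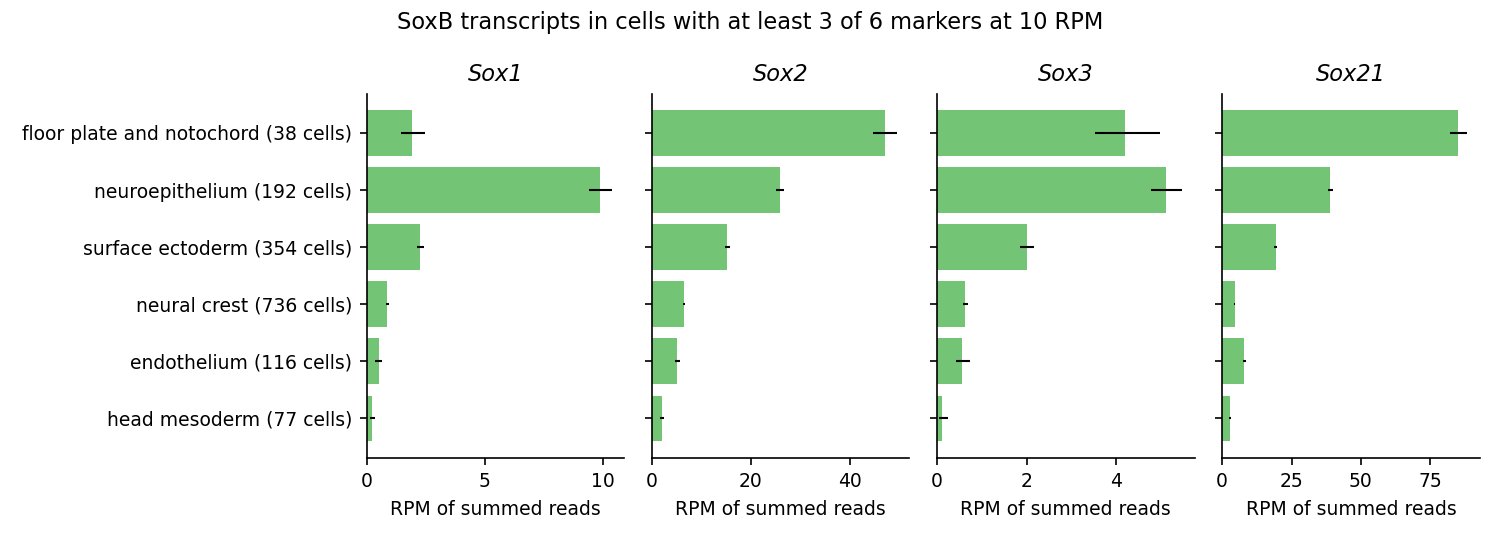
RPM of each SoxB gene (horizontal axis, one scale per gene) in cells with at least 3 of 6 markers of a type at 10 RPM, for 6 types with the number of cells. Error bars are exact Poisson intervals at 95%. Sox2 and Sox21 are highest in the 38 cells with floor plate and notochord markers (47 and 85.1) and Sox1 in those with neuroepithelium markers (9.91).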

How the data were processed

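The authors deposited counts: unscaled read numbers for every gene in every cell, with no normalization or molecular identifiers. STAR 2.6, bcl2fastq 2.18 and mm10 are named in the submitters' processing notes, and no source used here gives the read counter or its strand setting. Cells with at least 50000 gene reads and 1500 genes were kept, which had 92185 to 2098451 reads (median 859223). The 45S row Rn45s took 54.4% of gene reads, and 92 spike-ins were left out of totals. Each cell was its own library, and no doublet caller was run.

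Reads were summed over cells, and log2 ratios of RPM were taken after adding 0.5 reads in Python 3.11.15. Intervals at 95% are exact Poisson (levels) and Clopper-Pearson (shares). Thinning drew 50000 reads per cell. Calls are ratios of at least 2-fold among genes with 5 RPM or more in either group, not centred on the median gene. On simulated counts the steps recovered the set changes after such centring. Those counts held Poisson error only, with no spread between cells or plates, so they cannot show how reliable the calls are. Plate number pools had at least 10 cells. edgeR 4.0.16 and DESeq2 1.42.0 served for alternative scaling alone, in R 4.3.3.

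The members, gene lists and markers were chosen with earlier results of these data known. Named genes are the 4 members, Sox10, the 5 highest and 3 lowest r per member among protein-coding genes found in at least 10% of cells, and the 2 highest and 2 lowest ratios of each list at 10 somites. RefSeq gave promoters for 3 of the 4 members.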

Additional observations from a re-analysis of the deposited data

How the results depend on the processing

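Each member kept its sign in 10 against 4 somites and in cells with against without Sox10 reads under every alternative run, over ranges of −3.13 to −0.38 and −2.71 to −1.98 for Sox1, −1.68 to −0.09 and −1.89 to −1.21 for Sox2, −2.62 to −0.57 and −2.28 to −1.65 for Sox3, and −2.90 to −0.25 and −3.24 to −1.78 for Sox21. The ratio of 10 against 4 somites moved by more than the SD between plate numbers in these cases. For Sox21 it was −1.57 without the plate number that holds most cells of 10 somites, −1.53 without the one shared by 4 and 6 somites and −2.90 without cells with markers of other types. For Sox2 it was −1.45 without the one shared by 4 and 8 somites, −0.48 without the one shared by 4 and 6 and −0.45 with equal weight per plate number. For Sox1 it was −2.22 without cells of other types and −1.19 with equal weight. Within plate numbers over 6 somites it was −3.13 for Sox1, −1.68 for Sox2 and −1.16 for Sox3, and over 8 somites −0.42 for Sox2 and −0.25 for Sox21. In cells with Sox10 reads alone it was −1.19 for Sox1 and −0.73 for Sox2, and in cells without it was −0.38 for Sox1, −0.086 for Sox2, −0.57 for Sox3 and −0.60 for Sox21. The cause was not tested. Between Sox10 classes, a limit of 10 RPM of Sox10 or more against less moved the mean Sox21 ratio over the 4 stages from −1.90 to −3.24. Sox1 in 8 against 6 somites, −1.15 over all cells, turned to 0.037 in cells without Sox10 reads. Steps under 2-fold could change sign with the scaling, as Sox2 in 8 against 6 somites did (0.11, against −0.32 with TMM factors). No paired analysis was possible because the replicate numbers name cells and pair no samples; values within plate numbers are given instead. Shares of cells depend on depth and on the reads asked for. All 48 alternative shares of the members, and all 4 of cells with none of them, left the interval of the main value. Depth limits Sox1 and Sox3 in particular, whose shares at 50000 reads rest on 10.9% and 11.5% of cells.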

Other observations

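Sox14, the other SoxB2 gene, held reads in 13 cells, of which 5 were at 4 somites and 8 at 6. At 8 and 10 somites it had 0 reads, which allows up to 1.61% and 0.824% of cells with a read (exact interval, counting error only) and sets no limit on cells that express it. None of the cells with Sox10 reads held a Sox14 read.

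Sox2ot and Sox1ot, the long RNAs around Sox2 and Sox1, were lower with Sox10 reads at each stage, as those genes were, with log2 ratios of −1.10, −1.21, −2.51 and −2.97 for Sox2ot and −4.62, −1.83, −2.99 and −1.61 for Sox1ot at 4, 6, 8 and 10 somites. By stage, Sox2ot stood at 0.646, 1.70, 2.97 and 1.84 RPM at 4, 6, 8 and 10 somites, so that it was not lower at 10 than at 4 somites over all cells, though within plate numbers over 6 somites the log2 ratio was −4.48. In cells with Sox10 reads it stood at 0.827 RPM against 6.50 RPM in cells without at 10 somites. Sox1ot stood at 0.654, 0.694, 0.420 and 0.501 RPM over the stages.

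Wnt1, whose promoter drives the label, did not follow the SoxB pattern at the early stages. It stood at 68.9 RPM in cells with Sox10 reads against 39 in cells without at 4 somites, 41.2 against 18.9 at 6, 28.3 against 19.1 at 8 and 9.27 against 25.3 at 10. The level at 8 somites leans on 1 cell with Sox10 reads at 1619.95 RPM, where the highest cell without held 281.4. Thinned shares at that stage were 19.8% against 9.09%.

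The 38 cells with at least 3 neuron markers held 29.5 RPM of Sox2, 39.6 of Sox21, 4.85 of Sox3 and 4.22 of Sox1, but 37 of them had exactly 3 markers.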
